A study of Mus musculus with 16 samples.

Results

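The comparison described here sets TMP195 plus TNFα against TNFα alone in macrophages. It uses 8 of the 16 libraries of the series, chosen by their group labels: replicates 1 to 4 of each treatment. All libraries hold total RNA of macrophages grown from mouse bone marrow in L929-conditioned medium. The genotype label is B6.129P2-Apoetm1Unc/J, which carries a disrupted Apoe gene, and the strain label is C57BL/6J; both labels are shared by every group, so no group has intact Apoe. Cells of the TNFα group received TNFα at 50 ng/ml for 24 h in medium without serum. Cells of the TMP195+TNFα group received TMP195 at 5 µM for 1 h and then the same TNFα. The remaining groups, used only for context, are DMSO (no TNFα) and TPCA-1+TNFα, in which TPCA-1 at 500 nM took the place of TMP195. The labels do not say whether the 4 replicates came from separate mice or cultures, so the p-values here speak of spread among libraries, which may be technical. They also do not say whether cells given TNFα alone received the solvent of the inhibitor, so TMP195 and its solvent cannot be told apart in that case.

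Class IIa histone deacetylases (Hdac4, Hdac5, Hdac7 and Hdac9) have little deacetylase activity of their own. They bind transcription factors of the MEF2 family and bring corepressor complexes to their target genes. TMP195 occupies the catalytic pocket of the class IIa enzymes and is selective for them over other deacetylases. TNFα acts on macrophages through NF-kB and MAP kinases and raises cytokines, chemokines, adhesion molecules and acute-phase proteins.

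The 8 libraries held 18562773 to 31596572 counted reads, and 4.20% to 5.18% of reads were unmapped. A count of 3 corresponded to 0.0949 to 0.162 counts per 1000000 (CPM, here always over library sizes scaled by TMM). Levels below are mean CPM ± SD, and changes are log2 fold changes ± SE from edgeR's quasi-likelihood test with 4 libraries against 4. All 16 libraries entered the fit, with the replicate number as a block. A library of the context group, TPCA-1+TNFα 2, stood apart with 7489066 counted reads and 44.0% of reads unmapped; it helps to set the spread in the fit, and more genes were called without it. Apoe had 0.354 ± 0.169 CPM with TMP195 and 0.222 ± 0.134 CPM with TNFα alone, too low to test. Of 36 macrophage markers 34 reached 1 CPM in at least 1 of the 8 libraries, and Cd163 and Cx3cr1 did not.

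TMP195 changed the RNA level of 1699 of 12612 genes tested, which is 13.5% of them (Benjamini-Hochberg adjusted p under 0.05). Of these, 872 were higher (6.91% of genes tested) and 827 lower (6.56%). Most changes were small. Their median size was 0.60 on the log2 scale, 821 genes (48.3% of those called) differed by less than 1.5-fold, and 325 differed by at least 2-fold, 190 upwards and 135 downwards. The median over all genes tested was 0.02. Of the 1699 genes, 1691 moved the same way in all 4 same-number pairs of libraries, as did 48.4% of all genes tested. In 1208 of them the 2 groups of libraries did not overlap, as in 15.0% of all genes tested. Protein-coding genes made up 1609 of the 1699. Without the replicate block 372 genes were higher and 378 lower, and these 750 were all among the 1699. Without TPCA-1+TNFα 2 the counts were 1462 and 1491.

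**Figure D1:**
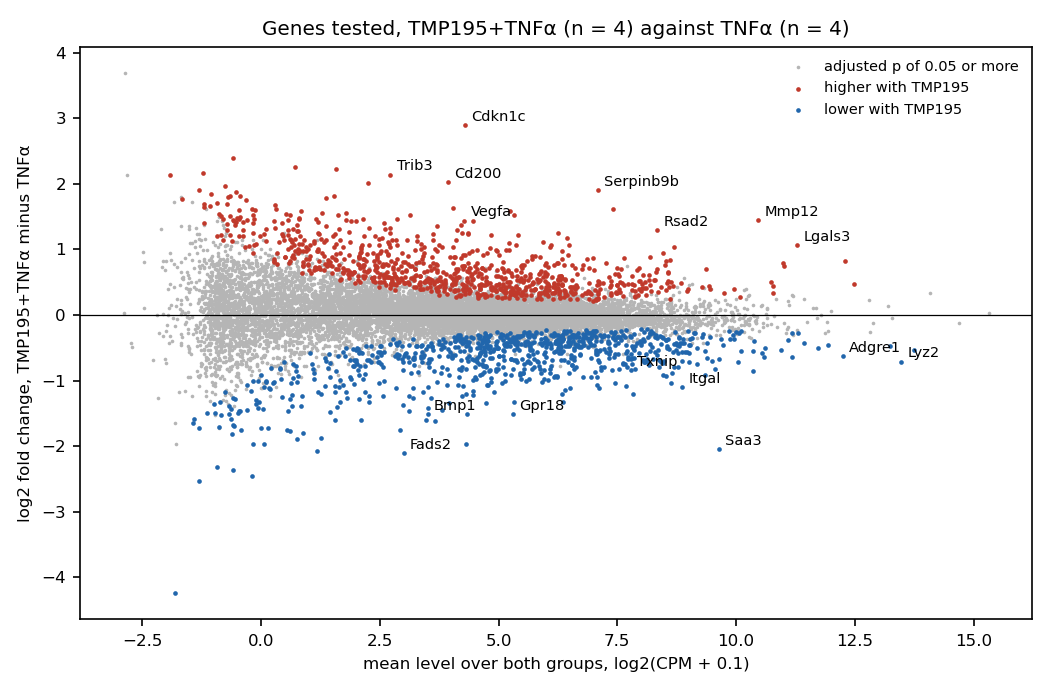
Each point is 1 of 12612 genes tested: the horizontal axis is the mean level over both groups as log2(CPM + 0.1), the vertical axis the log2 fold change of TMP195+TNFα minus TNFα. The 872 genes past the test upwards are red and the 827 downwards blue; Cdkn1c stands highest among the labelled genes at 2.89, and Fads2 and Saa3 lowest at -2.11 and -2.04.

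Genes were ranked if protein-coding, not clone-named or predicted, with a mean of at least 5 CPM and the same direction in all 4 pairs. The largest rise among them was that of Cdkn1c (ENSMUSG00000037664, GRCm38 chr7:143458339-143461050), which encodes the cyclin-dependent kinase inhibitor p57. Its libraries read 38.7, 33.6, 30.8 and 34.0 CPM with TMP195, in order of replicate number, and 5.79, 4.95, 5.55 and 2.85 CPM with TNFα alone. The groups lay far apart, with a change of 2.89 ± 0.25 (7.39-fold, adjusted p = 5.92e-06). Cd200, the ligand of an inhibitory receptor on myeloid cells (ENSMUSG00000022661, chr16:45382135-45409053), read 28.5, 26.6, 29.1 and 12.6 CPM with TMP195 and 6.99, 7.31, 7.72 and 2.41 CPM without it. Replicate 4 was the lowest library in both groups, and the lowest library with TMP195 was still above the highest without it (2.03 ± 0.15, adjusted p = 3.22e-06). Trib3, a pseudokinase gene of the stress response, rose from 2.39 ± 1.20 to 10.6 ± 5.66 CPM (2.14 ± 0.25, adjusted p = 5.95e-05). Here replicate 4 was the highest library in both groups, at 19.0 and 4.15 CPM.

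Several of the other large rises belong to surface proteins and secreted proteins. Il7r, the interleukin-7 receptor chain, rose from 87.2 ± 29.6 to 255 ± 46.8 CPM (1.62 ± 0.16) and podoplanin Pdpn, a membrane glycoprotein that binds the lectin CLEC-2, from 19.0 ± 5.85 to 56.7 ± 15.1 CPM (1.59 ± 0.14). The intracellular protease inhibitor gene Serpinb9b rose from 59.6 ± 18.4 to 212 ± 37.6 CPM (1.90 ± 0.26). Macrophage elastase, Mmp12, an abundant transcript, read 2162, 2184, 2117 and 1753 CPM with TMP195 against 858, 835, 851 and 519 CPM, so that every library with TMP195 held more than the highest without it (1.45 ± 0.24, adjusted p = 8.45e-04). The angiogenic factor Vegfa (ENSMUSG00000023951, chr17:46016993-46032369) read 29.8, 24.7, 29.4 and 28.9 CPM against 9.88, 9.61, 11.9 and 10.2 CPM. Its spread within each group was small beside the gap between them (1.44 ± 0.13, adjusted p = 6.58e-06). The others among the 12 largest rises were the thyroid hormone deiodinase Dio2 (1.63 ± 0.19), the acute-phase protein orosomucoid Orm1 (1.52 ± 0.21), the proton pump subunit Atp6v0d2 (1.52 ± 0.17) and the actin-capping Tmod1 (1.46 ± 0.17). Dio2 was the one of the 12 whose groups overlapped, and its call ended without the block (adjusted p = 0.102).

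Genes with the smallest p upwards, beside Cd200 and Cdkn1c, had smaller changes with tight replicates. The tetraspanin Tspan13 rose by 1.38 ± 0.11, Lhfpl2, a gene of the tetraspan superfamily, by 1.07 ± 0.09, the AKT phosphatase Phlpp1 by 0.99 ± 0.08 and Nav2 of the neuron navigator family by 1.15 ± 0.10. Phlpp1 shows how even the libraries were: 35.8, 29.8, 29.4 and 28.5 CPM with TMP195 and 15.8, 15.6, 15.2 and 15.2 CPM without.

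The falls were led by lipid enzymes and by Saa3, an acute-phase serum amyloid (ENSMUSG00000040026, chr7:46711998-46715700). Saa3 read 362, 99.1, 513 and 282 CPM with TMP195 and 1175, 403, 1882 and 1669.9 CPM with TNFα alone. Replicate 2 was the lowest in both groups, and the groups overlapped at that library, while each pair fell (-2.04 ± 0.28, adjusted p = 2.22e-04). The desaturase Fads2 fell by 2.11 ± 0.37 and the desaturase Scd1 by 1.62 ± 0.39. Both genes also overlapped between groups, and both calls ended without the block (adjusted p = 0.213 and 0.191). The call of Scd1 ended as well without TMP195+TNFα 1, TMP195+TNFα 4 or TNFα 4 (highest adjusted p = 0.0799).

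For the falls named next the groups did not overlap. Bmp1, the procollagen C-proteinase (ENSMUSG00000022098, chr14:70474558-70520234), read 4.36, 6.70, 5.76 and 6.62 CPM with TMP195 against 11.9, 16.6, 17.9 and 20.3 CPM (-1.51 ± 0.12, adjusted p = 3.22e-06). Gpr18, a G protein-coupled receptor, read 22.6, 16, 19.7 and 24.2 CPM against 60.4, 48.6, 59.0 and 65.7 CPM (-1.51 ± 0.11, adjusted p = 3.22e-06). Both were lower in every library with TMP195, by nearly the same factor. Connexin 43, encoded by Gja1, fell by 1.45 ± 0.17, and Shisa3, an attenuator of Wnt and FGF signals, by 1.6 ± 0.28. The microtubule-binding Gtse1 fell by 1.47 ± 0.19, the phosphatase-related Plppr4 by 1.42 ± 0.17, the transcription factor Ascl2 by 1.37 ± 0.18 and the pseudokinase Trib1 by 1.34 ± 0.19. Smallest p downwards brought in Txnip, which binds thioredoxin and limits glucose uptake (-0.84 ± 0.07), ceruloplasmin Cp (-1.33 ± 0.11), the spindle protein Psrc1 (-1.21 ± 0.10) and Itgal, the alpha chain of the integrin LFA-1 (-1.10 ± 0.09).

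**Figure D2:**
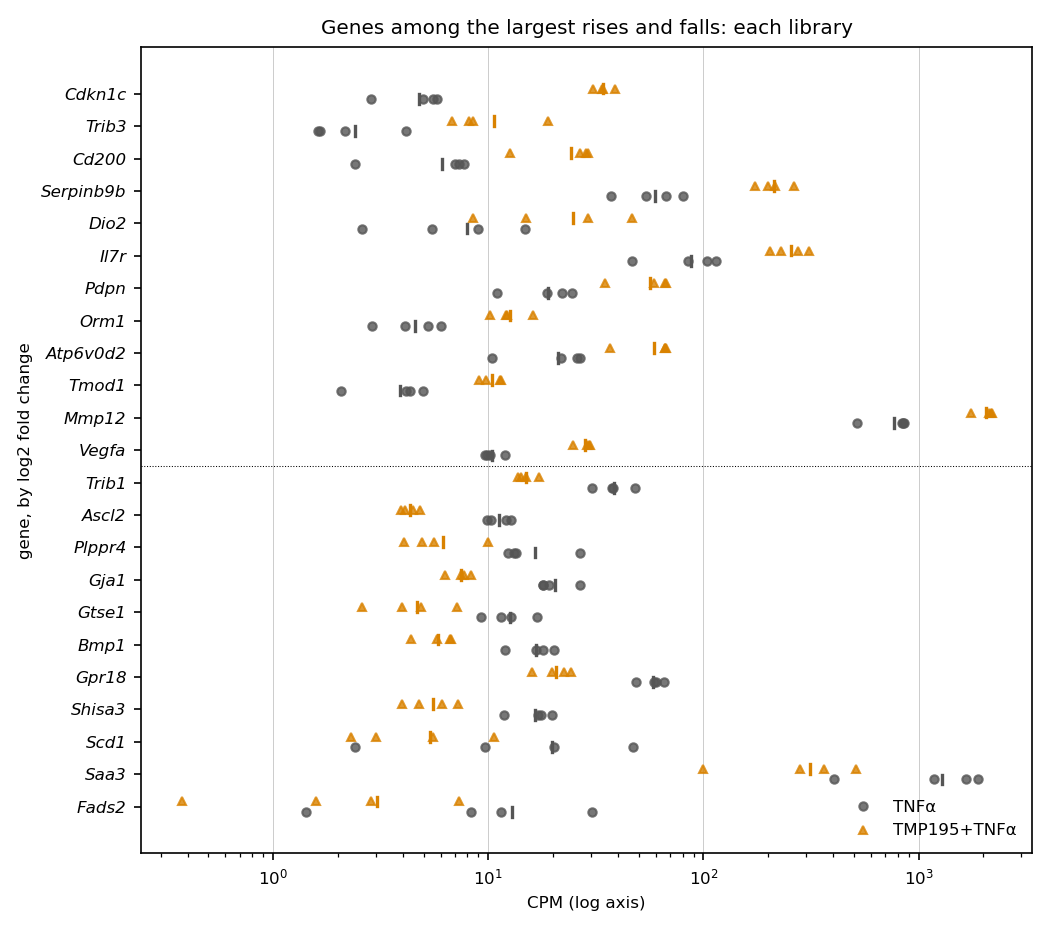
Level in CPM (log axis) of each library for the largest rises (top) and genes among the largest falls (bottom); grey circles are TNFα libraries, orange triangles TMP195+TNFα libraries, and vertical ticks the group means. The 4 Cdkn1c libraries with TMP195 sit between 30.8 and 38.7 CPM and those without between 2.85 and 5.79 CPM; Dio2, Scd1, Saa3 and Fads2 overlap between groups.

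Beyond single genes, 40 lists of 960 genes were written from textbook knowledge, with earlier results of these data known. Each was described by the number of its tested members that passed the test and by its median change. Beside these stand 13.5% called and a median of 0.02 over all genes tested. Because members were chosen with those earlier results known, the shares are descriptions and not tests. By edgeR 0 members went the other way in several lists named below. Opposite to the called direction, the amino acid stress and interferon lists had 1 gene each at an unadjusted p under 0.05 and 0 calls by DESeq2 and by limma, and the cholesterol, fatty acid and tRNA synthetase lists had 0 by all 3.

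**Figure D3:**
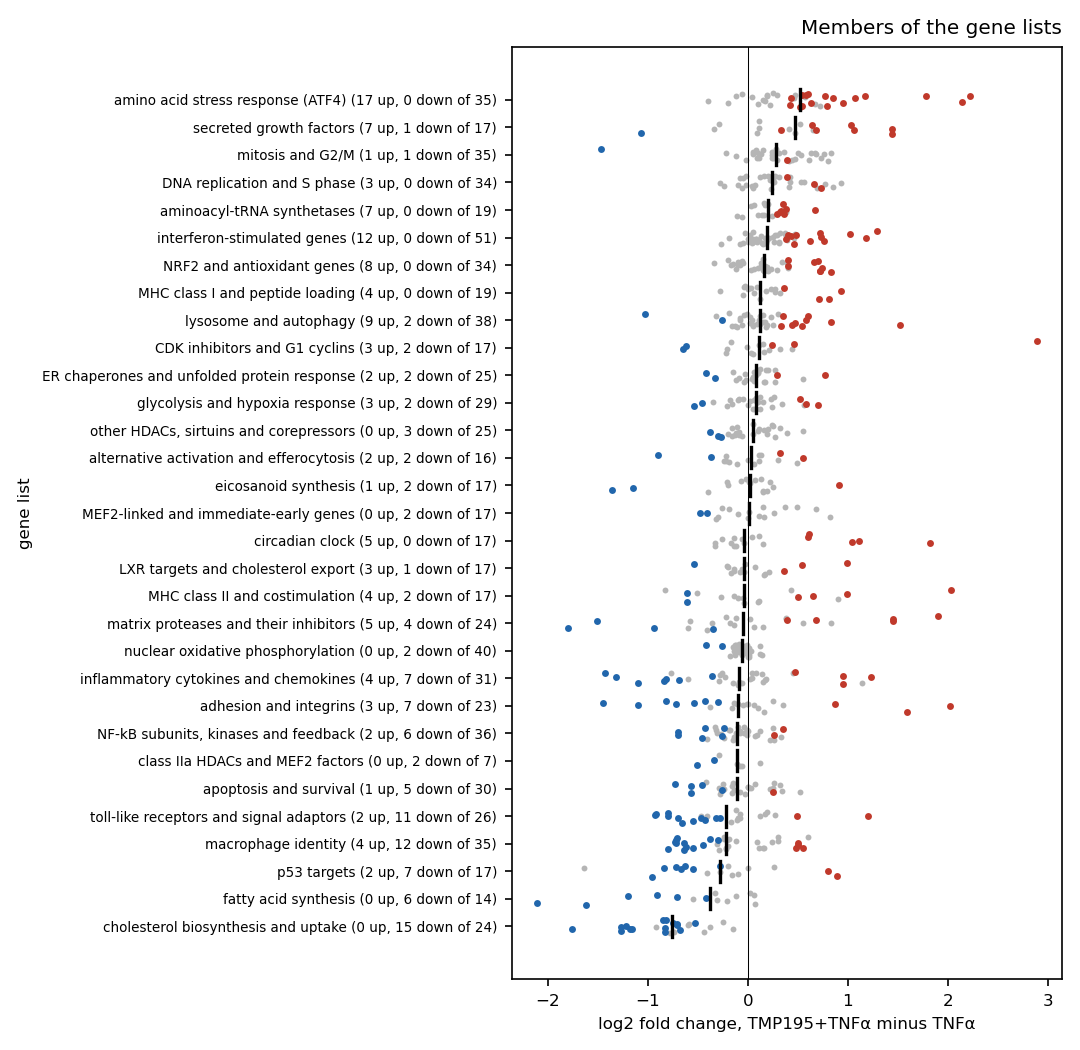
Each point is a tested member of a pathway or macrophage list, placed by its log2 fold change of TMP195+TNFα minus TNFα (red and blue: past the test upwards and downwards; grey: not past it), and each black bar is a list's median. The amino acid stress list lies furthest to the right with a median of 0.52 and the cholesterol list furthest to the left with -0.76.

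Genes of the amino acid stress response rose together. Lack of amino acids or other stress increases translation of the transcription factor ATF4, which raises genes of amino acid synthesis, transport and tRNA charging, often through a composite site for a C/EBP-ATF dimer. Of 35 tested members 17 rose and 0 fell, 48.6% against 13.5% of all genes, with a median of 0.52. In all 4 pairs 26 of the 35 were higher, as were 3184 of all 12612 genes tested. Asparagine synthetase, Asns (ENSMUSG00000029752, chr6:7675169-7693254), read 88.8, 88.3, 71.0 and 123 CPM with TMP195 and 36.7, 53.7, 37.6 and 49.2 CPM without. No library of one group reached into the other (1.07 ± 0.14, adjusted p = 1.55e-04). The stress cytokine Gdf15 rose from 83.8 ± 16.6 to 149.8 ± 26.2 CPM (0.85 ± 0.12) and the alanine aminotransferase Gpt2 from 7.32 ± 1.17 to 14.2 ± 2.96 CPM (0.95 ± 0.15). Named after their values were seen, the serine synthesis enzyme Phgdh rose by 2.22 ± 0.40, the glutathione-degrading Chac1 by 1.78 ± 0.36, the folate enzyme Mthfd2 by 0.79 ± 0.13, Ddit3, which encodes CHOP, by 0.77 ± 0.17, Atf4 itself by 0.54 ± 0.10 and Atf3 by 0.54 ± 0.12. Phgdh was at 0.996 ± 0.430 CPM without TMP195, so its fold is less certain. Without the block 9 members were called, and the calls of Chac1, Atf4 and Atf3 ended (adjusted p = 0.159, 0.0634 and 0.0963).

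Aminoacyl-tRNA synthetases, which charge tRNAs and are in part ATF4 targets, rose in 7 of 19 cases (36.8%), with a median of 0.20. The cysteinyl enzyme Cars rose from 28.4 ± 3.17 to 45.1 ± 5.11 CPM (0.67 ± 0.13, adjusted p = 0.00328) with no overlap. Aars, Eprs and Wars, for alanine, glutamate with proline, and tryptophan, rose by 0.35 ± 0.09, 0.38 ± 0.09 and 0.33 ± 0.09. The count moved with single libraries: it was 8 without TMP195+TNFα 2, 3 without TMP195+TNFα 1, TNFα 1 or TNFα 3, 2 without TMP195+TNFα 3, TNFα 2 or TNFα 4 and 1 without TMP195+TNFα 4, and 2 without the block. Among those named, the call of Cars did not end on leaving out any 1 library, and the highest adjusted p on doing so were 0.0592 for Aars, 0.0777 for Eprs and 0.138 for Wars. Chaperones of the endoplasmic reticulum and other unfolded protein genes had 2 higher and 2 lower of 25 (16% called, near the 13.5% of all genes), with a median of 0.08. These were the co-chaperone Dnajb9 (0.77 ± 0.21) and the transcription factor Xbp1 (0.29 ± 0.09) upwards, and the degradation factors Herpud1 (-0.42 ± 0.07) and Sel1l (-0.33 ± 0.08) downwards. The call of Dnajb9 ended on leaving out any of the 8 libraries except TMP195+TNFα 4 and TNFα 2, that of Xbp1 on leaving out any of the 8 (highest adjusted p = 0.0834 and 0.174), that of Sel1l without TMP195+TNFα 4 or TNFα 2 (highest adjusted p = 0.0626), and without the block 0 of the 4 were called. Without TPCA-1+TNFα 2, 5 members rose.

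Promoters of genes tested were searched for the composite motif TGATGNAA on both strands in 300 bases (250 before and 50 after each RefSeq start, build GRCm38.p6). Promoters were found for 9289 of the 12612 genes tested, 11835 promoters in all, and 2.40% of them held the motif. The share was 4.69% for genes that rose and 3.43% for genes that fell, and 24.4% (10 of 41 promoters) for the amino acid stress list and 41.7% (5 of 12) for the synthetases. Among called members it was 25% (5 of 20) and 75% (3 of 4). The called stress genes thus held the motif about as often as their whole list. The letters in capitals are the match, on either strand. For Chac1 (chr2:119351009-119351096, plus strand) it lies at -193 to -186 from the RefSeq start, and for Atf3 (chr1:191183396-191183483, minus strand) at -110 to -103. The window of Chac1 lies outside the GENCODE gene span, and that of Atf3 lies inside it, in no annotated exon. Both genes were chosen after their values were seen.
Chac1: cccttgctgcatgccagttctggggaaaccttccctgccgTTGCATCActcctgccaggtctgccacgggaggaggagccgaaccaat
Atf3: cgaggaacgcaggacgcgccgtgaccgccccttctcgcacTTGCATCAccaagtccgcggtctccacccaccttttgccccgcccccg
Chac1 and Atf3 share the same 8 letters, TTGCATCA, the reverse strand of the motif. A match describes the letters only, and no binding was measured.

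Cholesterol synthesis genes fell together. These enzymes, the sterol sensor Insig1 and the carrier Stard4 are raised by SREBP-2 when sterols in the endoplasmic reticulum are low. Of 24 tested members 15 fell and 0 rose (62.5% against 13.5% of all genes), and the median was -0.76. All 24 were lower with TMP195 in all 4 pairs, as were 2918 of all 12612 genes tested. Stard4 (ENSMUSG00000024378) read 17.2, 7.12, 11.6 and 18.2 CPM with TMP195 and 34.8, 16.2, 28.7 and 40.8 CPM without (-1.16 ± 0.17, adjusted p = 2.68e-04). Replicate 2 was lowest in both groups and each pair fell. The prenyl synthase Fdps fell by 1.27 ± 0.22 and Insig1 by 0.85 ± 0.11. Named after their values were seen, the demethylase Cyp51 stood at 13.0 ± 5.33 against 30.6 ± 13.5 CPM (-1.22 ± 0.25).

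The sterol genes differed as much between replicate numbers as between treatments. Their summed level was 932, 447, 806 and 1212 CPM in TNFα 1 to 4 and 539.8, 347, 470.0 and 709 CPM in the same-number libraries with TMP195. The median difference within pairs was -0.90, -0.36, -0.82 and -0.87. Pair 2 had both the lowest levels and the smallest difference. Without the block 1 of the 24 genes was called, Stard4 (adjusted p = 0.0441), so the count depends on pairing the libraries by number. It was 10 to 21 on leaving out any 1 library.

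Fatty acid synthesis genes, the targets of SREBP-1, fell in 6 of 14 cases (42.9% called against 13.5% of all genes), with a median of -0.38. Beside Fads2 and Scd1 these were the acyl-CoA synthetase Acsl3 (-0.71 ± 0.14) and the citrate lyase Acly (-0.42 ± 0.11), with Scd2 and Fasn. Without TMP195+TNFα 4 or TNFα 4 the count was 2, and without the block 0. The call of Acsl3 held on leaving out any 1 library, and that of Acly ended without TMP195+TNFα 4 or TNFα 4 (highest adjusted p = 0.0764). The SREBP genes themselves missed the threshold, Srebf2 at -0.44 ± 0.18 (adjusted p = 0.119) and Srebf1 at -0.33 ± 0.21 (adjusted p = 0.378). Genes of the oxysterol receptor LXR and of cholesterol export had a median of -0.04, with 3 higher and 1 lower of 17 (23.5% called). The small GTPase Arl4c rose from 25.1 ± 5.24 to 49.2 ± 7.04 CPM (0.99 ± 0.12), the cholesterol-esterifying Soat1 by 0.36 ± 0.09 and the sterol hydroxylase Cyp27a1 by 0.54 ± 0.16, and the phospholipid enzyme Lpcat3 fell by 0.54 ± 0.11. Of these, the call of Arl4c alone held both without the block and without each single library, and the rises numbered 1 without TNFα 1, 3 or 4 and 5 without TPCA-1+TNFα 2. The exporters Abca1 (-0.14 ± 0.09, adjusted p = 0.390) and Abcg1 (-0.20 ± 0.13, adjusted p = 0.393) missed the threshold. The letters TCACNCCAC, a sterol response element, were in 1.10% of all promoters and in 1 of 20 promoters of the cholesterol list.

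**Figure D4:**
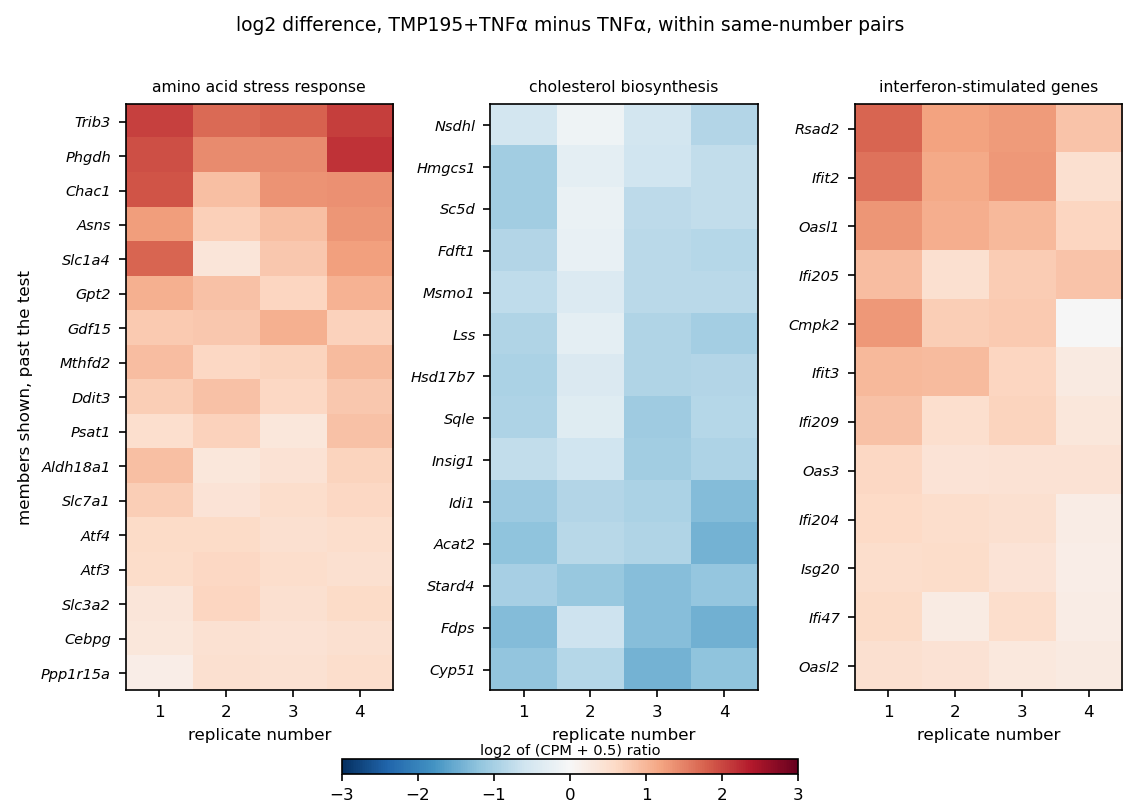
Log2 differences between libraries of the same replicate number (TMP195+TNFα minus TNFα, of CPM + 0.5) for members past the test in 3 lists, with red for higher and blue for lower with TMP195. The cholesterol genes are palest in pair 2 and the interferon-stimulated genes in pair 4. Over all tested members, shown or not, the list medians there were -0.36 and -0.07.

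Interferon-stimulated genes, the antiviral effectors that type I interferon raises, were higher in 12 of 51 cases with TMP195 and lower in 0 (23.5% against 13.5%), with a median of 0.19. Viperin, Rsad2 (ENSMUSG00000020641, chr12:26442746-26456452), read 809, 442, 414 and 212 CPM with TMP195 and 242, 192, 171 and 117 CPM without. Each pair rose, and the group ranges met at 212 and 242 CPM (1.29 ± 0.22, adjusted p = 9.67e-04). The translation-blocking Ifit2 rose from 49.6 ± 19.6 to 123 ± 83.2 CPM (1.18 ± 0.23), the 2'-5'-oligoadenylate synthetase-like Oasl1 from 18.5 ± 3.31 to 38.2 ± 10.5 CPM (1.02 ± 0.21) and the nucleotide kinase Cmpk2 from 46.9 ± 9.99 to 85.2 ± 48.1 CPM (0.73 ± 0.18).

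The size of these rises differed between the replicate numbers. The list's median difference was 0.45, 0.22, 0.15 and -0.07 in pairs 1 to 4. Its summed level was 9832, 6539.8, 7347 and 5608 CPM with TMP195 against 7352, 5559, 6467 and 5656 CPM. Over all tested members, pair 4 thus did not show the difference. Among the called members Cmpk2 alone was not higher in pair 4 (-0.01), where Rsad2, Oasl1 and Ifit2 differed by 0.86, 0.64 and 0.47. Without the block 2 members were called, Rsad2 and Oasl1 (adjusted p = 0.0406 and 0.0123). The count was 3 without TMP195+TNFα 1, TMP195+TNFα 3 or TNFα 1, 4 without TNFα 3 or TNFα 4, 5 without TNFα 2 and 6 without TMP195+TNFα 2, and 18 without TPCA-1+TNFα 2. The call of Ifit2 ended without the block (adjusted p = 0.0886), and so did that of Cmpk2 (adjusted p = 0.151). The latter ended as well without TMP195+TNFα 1, TMP195+TNFα 3 or TNFα 1 (highest adjusted p = 0.0768). Common members missed the threshold: Ifit1 stood at 0.37 ± 0.20 (adjusted p = 0.285), Isg15 at 0.31 ± 0.15 (adjusted p = 0.227) and the regulator Irf7 at 0.17 ± 0.15 (adjusted p = 0.563). Reads of the Ifi200, Oas and Ifit families are split between close relatives and count only where they map uniquely.

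The interferon-stimulated response element, searched as GAAA, 2 bases of any kind and GAAA on both strands, was in 3.34% of all promoters, 55.1% of those of the interferon list (27 of 49) and 28.6% of those of its called members (4 of 14). The share was 4.24% for genes that rose and 3.08% for genes that fell. The window of Rsad2 (chr12:26456523-26456612, minus strand) has the match at -120 to -111, and that of Oas3 (chr5:120777685-120777774, minus strand), named after its value was seen, at -75 to -66. They are shown to set the largest rise of the list beside a member with a smaller one, Oas3 at 0.48 ± 0.13, whose call ended without the block (adjusted p = 0.0664) and on leaving out any of the 8 libraries except TMP195+TNFα 2 (highest adjusted p = 0.0892).
Rsad2: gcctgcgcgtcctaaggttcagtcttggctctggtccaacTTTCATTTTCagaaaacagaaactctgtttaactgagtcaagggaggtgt
Oas3: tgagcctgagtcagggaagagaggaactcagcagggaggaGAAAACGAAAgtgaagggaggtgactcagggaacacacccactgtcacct
The MEF2 site, searched by its consensus, was in 1.61% of all promoters, 2.01% of those of genes that rose and 1.78% of those of genes that fell. The NF-kB site was in 5.10%, 6.92% and 6.04%, the AP-1 letters TGAGTCA in 3.79%, 6.14% and 4.02%, and the cAMP response element TGACGTCA in 3.03%, 2.12% and 1.78%.

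Class I antigen presentation is another set of genes that interferons raise. Of 19 tested members 4 were higher and 0 lower (1 lower gene at an unadjusted p under 0.05, 1 by DESeq2 and 0 by limma). That was 21.1% called against 13.5% of all genes, with a median of 0.12. All 4 were nonclassical genes: H2-Q4 rose from 18.9 ± 3.17 to 31.1 ± 5.39 CPM (0.71 ± 0.12), H2-Q6 by 0.93 ± 0.21, H2-Q7 by 0.81 ± 0.19 and H2-T23 by 0.36 ± 0.11. H2-Q genes are near-identical, so their separate levels are uncertain. Without TMP195+TNFα 4 or TNFα 2 the count was 2, and without the block H2-Q4 alone was called. Without TNFα 2 or TPCA-1+TNFα 2, 1 member fell. The call of H2-Q7 ended without TMP195+TNFα 4 or TNFα 2 or 4 and that of H2-T23 on leaving out any of the 8 libraries except TMP195+TNFα 2 and TNFα 4 (highest adjusted p = 0.0827 and 0.134).

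Inflammatory cytokines and chemokines were divided. Of 31 tested members 4 rose and 7 fell, 35.5% against 13.5% of all genes, with a median of -0.09. Upwards, the interleukin-1 receptor antagonist Il1rn went from 239.8 ± 68.7 to 462 ± 126 CPM (0.95 ± 0.13, adjusted p = 1.72e-04), the macrophage growth factor Csf1 from 7.29 ± 1.67 to 17.1 ± 3.80 CPM (1.23 ± 0.22) and oncostatin M, Osm, from 3.43 ± 0.366 to 6.69 ± 1.41 CPM (0.95 ± 0.15). The fourth was Il1a (0.47 ± 0.14), named after its value was seen, whose call ended on leaving out any of the 8 libraries (highest adjusted p = 0.202) and without the block (adjusted p = 0.487). Il1rn was higher in each pair by a similar factor, although its groups overlapped at TMP195+TNFα 4 (278 CPM), and its call ended without the block (adjusted p = 0.0795). Downwards, the monocyte chemoattractants Ccl2 and Ccl12 went from 73.6 ± 24.2 to 43.9 ± 23 CPM (-0.82 ± 0.19, adjusted p = 0.00980) and from 35.3 ± 11.3 to 20.7 ± 11.4 CPM (-0.84 ± 0.17). Interleukin-1 beta, Il1b, read 6.16, 5.15, 11 and 6.5 CPM with TMP195 and 15.2, 8.63, 17.6 and 19.6 CPM without (-1.10 ± 0.30, adjusted p = 0.0225). Each pair of Il1b fell, but its call ended on leaving out any of the 8 libraries except TNFα 2 and TNFα 3 (highest adjusted p = 0.128), without the block (adjusted p = 0.105) and by DESeq2.

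The calls of Ccl2 and Ccl12 also ended without the block (adjusted p = 0.247 and 0.206), and that of Ccl2 without TMP195+TNFα 4 (adjusted p = 0.0512). The count of falling cytokines was 4 without TMP195+TNFα 1, TNFα 1, TNFα 3 or TNFα 4, 3 without TMP195+TNFα 3 and 2 without TMP195+TNFα 4, and 1 without the block. Tnf (593 ± 95.8 against 495 ± 64.1 CPM with TMP195; -0.26 ± 0.13, adjusted p = 0.216) and Il6 (1.42 ± 0.447 against 0.861 ± 0.431 CPM; -0.77 ± 0.26, adjusted p = 0.0629) missed the threshold, while lower in all 4 pairs. Both were called with only the 8 libraries compared in the fit, and Il6 also without TPCA-1+TNFα 2.

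Prostaglandin and leukotriene genes had 1 higher and 2 lower of 17 (17.6% called, near the 13.5% of all genes). Cyclooxygenase-2, Ptgs2 (ENSMUSG00000032487, chr1:150100031-150108227), read 41.7, 55.6, 66.3 and 46.1 CPM with TMP195 and 95.8, 129, 139 and 101 CPM with TNFα alone. The lowest library without TMP195 was above the highest with it (-1.15 ± 0.20, adjusted p = 0.00108). The 5-lipoxygenase gene Alox5 fell by 1.36 ± 0.31 from 1.19 ± 0.174 CPM, and the prostaglandin E2 receptor Ptger2 rose by 0.91 ± 0.18. These 3 calls held on leaving out any 1 library and without the block, and that of Alox5 ended without replicate number 1 (adjusted p = 0.0634) or 3. The rises numbered 3 without TPCA-1+TNFα 2.

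Of 36 tested genes of the NF-kB system itself 2 rose and 6 fell (22.2% against 13.5% of all genes), with a median of -0.11. In all 4 pairs 17 were lower, as were 2918 of all 12612 genes tested. Nfkbiz, a nuclear IkB protein, fell from 335 ± 40.4 to 206 ± 7.56 CPM without overlap (-0.70 ± 0.12, adjusted p = 0.00117). The kinase Map3k8, the inhibitor Tnip3 and the adaptor Tab2 fell by 0.46 ± 0.11, 0.70 ± 0.19 and 0.24 ± 0.07. Among those that fell, the number called was 1 to 3 on leaving out any of the 8 libraries, 10 without TPCA-1+TNFα 2 and 2 without the block. The 2 members that rose, the ubiquitin-editing Tnfaip3 and the ligase Traf6, named after their values were seen, were not called on leaving out any of the 8 libraries, and 5 were called upwards without TPCA-1+TNFα 2. Tnip3 lost its call without the block (adjusted p = 0.160) and on leaving out any of the 8 libraries except TMP195+TNFα 2 and TNFα 3 (highest adjusted p = 0.104), Tab2 without the block (adjusted p = 0.0979) and on leaving out any of the 8 (highest adjusted p = 0.125), and Map3k8 without TMP195+TNFα 4 (adjusted p = 0.0544). The feedback inhibitor Nfkbia missed the threshold (-0.31 ± 0.16, adjusted p = 0.237), and so did the IKK kinases Ikbkb (-0.04 ± 0.07, adjusted p = 0.805) and Chuk (-0.04 ± 0.12, adjusted p = 0.884). Nfkbia was called without a filter on low counts, with only the 8 libraries compared, and without TPCA-1+TNFα 2.

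The targets of TMP195 were measured too. Hdac9 (ENSMUSG00000004698, chr12:34047580-34917095) read 2.51, 2.67, 3.33 and 2.59 CPM with TMP195 and 3.29, 4.02, 4.17 and 4.29 CPM without. The groups overlapped at TMP195+TNFα 3 and TNFα 1 (-0.51 ± 0.16, adjusted p = 0.0472). Mef2a went from 137 ± 8.82 to 108 ± 6.5 CPM without overlap (-0.34 ± 0.09, adjusted p = 0.0219). Both calls were marginal. That of Hdac9 ended on leaving out any of the 8 libraries except TNFα 3 (highest adjusted p = 0.166), that of Mef2a on leaving out any except TMP195+TNFα 2 and TNFα 3 (highest adjusted p = 0.0926), and both without the block (adjusted p = 0.134 and 0.101). Hdac4 (-0.08 ± 0.12), Hdac5 (-0.11 ± 0.15), Hdac7 (0.12 ± 0.13), Mef2c (-0.29 ± 0.10, adjusted p = 0.0809) and Mef2d (-0.06 ± 0.12) missed the threshold, although Mef2c was called by DESeq2, with only the 8 libraries compared, and without TPCA-1+TNFα 2. Of 17 genes linked to MEF2 or to immediate-early induction, Fos (-0.48 ± 0.14) and Fosl2 (-0.41 ± 0.12) fell and 0 rose by edgeR, with 3 higher at an unadjusted p under 0.05, 1 by DESeq2 and 0 by limma. That was 11.8% called, below the 13.5% of all genes tested, with a median of 0.01. Of 25 other deacetylases, sirtuins and corepressors Hdac1 (-0.38 ± 0.08), Tbl1x (-0.30 ± 0.07) and Mta2 (-0.27 ± 0.08) fell and 0 rose, with 3 higher at an unadjusted p under 0.05, 1 by DESeq2 and 1 by limma. Here 12% were called, also below the share over all genes, and the median was 0.05. In these lists 3 and 2 members rose without TPCA-1+TNFα 2. None of these 5 calls held without the block. That of Hdac1 held on leaving out any 1 library. That of Tbl1x ended without TMP195+TNFα 4 or TNFα 2, that of Mta2 on leaving out any of the 8 libraries, that of Fos without TMP195+TNFα 4 or TNFα 1, 3 or 4, and that of Fosl2 on leaving out any of the 8 except TMP195+TNFα 3 and TNFα 1 (highest adjusted p = 0.0572, 0.151, 0.113 and 0.129).

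Toll-like receptors and their signal adaptors, which sense microbial products, were mostly lower. Of 26 tested members 11 fell and 2 rose, 50.0% called against 13.5%, with a median of -0.22, and the median difference was between -0.20 and -0.24 in each of the 4 pairs. Tlr1, the partner of Tlr2 for lipopeptides, read 308, 179, 247 and 247 CPM with TMP195 and 530.5, 388, 439.8 and 477 CPM without. The groups did not overlap (-0.92 ± 0.09, adjusted p = 1.49e-05). The adaptor Myd88 fell from 126 ± 33.9 to 71.0 ± 8.98 CPM (-0.80 ± 0.13), the inhibitory kinase Irak3 from 559.5 ± 53.8 to 322 ± 40.2 CPM (-0.80 ± 0.10) and the adaptor Ticam2 from 25.1 ± 4.05 to 15.4 ± 2.24 CPM (-0.70 ± 0.09). These 4 calls held without the block, in which 6 members fell. The interleukin-1 receptor Il1r1 (1.20 ± 0.24) and Tlr13 (0.49 ± 0.13), both picked after seeing their values, rose, and neither was called without the block (adjusted p = 0.213 and 0.170). The count of falling genes was 7 without TNFα 3, and the call of Tlr13 ended without TMP195+TNFα 2 or 4 or TNFα 1, 3 or 4 (highest adjusted p = 0.0791).

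Among 35 tested genes of macrophage identity 12 fell and 4 rose, with a median of -0.22 (45.7% called). In bulk RNA fewer cells of a type and less RNA per cell cannot be told apart. Adgre1, which encodes F4/80 (ENSMUSG00000004730, chr17:57358691-57483527), read 4319.7, 3059, 3983 and 3957 CPM with TMP195 and 6192, 4845, 6122 and 6418 CPM without. Its groups did not overlap (-0.62 ± 0.08, adjusted p = 8.51e-05). The lysozyme Lyz2 fell from 14169 ± 2769 to 8674 ± 1699 CPM (-0.71 ± 0.12), the transcription factor Maf from 437 ± 57.1 to 266 ± 66.6 CPM (-0.73 ± 0.11) and the Fc receptor chain Fcer1g from 4549.6 ± 319.5 to 3319 ± 209 CPM (-0.45 ± 0.08). The call of Lyz2 ended without the block (adjusted p = 0.0971). Not all markers went the same way: named after their values were seen, the lysosomal glycoprotein Cd68 stood at 2009 ± 213 against 1424 ± 118 CPM (0.50 ± 0.15, adjusted p = 0.0342) and the lipid receptor Trem2 at 162 ± 21.7 against 116 ± 15.8 CPM (0.48 ± 0.13, adjusted p = 0.0202). Both rose, yet both calls ended without the block (adjusted p = 0.0646 and 0.122), without TMP195+TNFα 4 and without each TNFα library (highest adjusted p = 0.162 for Cd68 and 0.115 for Trem2), that of Cd68 also without TMP195+TNFα 1 or 3. The other 2 rises were Cd300a (0.50 ± 0.12), named after its value was seen, and the mannose receptor Mrc1 (0.55 ± 0.17). Neither was called without TNFα 4 (highest adjusted p = 0.0542 for Cd300a and 0.214 for Mrc1 over single libraries left out). Falls numbered 10 to 15 on leaving out any 1 library. Rises numbered 2 without TMP195+TNFα 1 or TNFα 2, 1 without TMP195+TNFα 4, TNFα 1 or TNFα 3, 0 without TNFα 4 and 7 without TPCA-1+TNFα 2. Without the block 4 members fell and 0 rose.

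Lysosome and autophagy genes had 9 higher and 2 lower of 38 (28.9% called against 13.5% of all genes), and their median was 0.12. Beside Atp6v0d2 the glycosidase Gla (129.9 ± 24.3 to 193 ± 29.3 CPM, 0.58 ± 0.10) rose, and the protease cathepsin C, Ctsc, fell from 529 ± 68.9 to 262 ± 56.5 CPM (-1.03 ± 0.13). These calls held on leaving out any 1 library, and that of Gla ended without the block (adjusted p = 0.0619). Gusb, named after its value was seen, also fell (-0.26 ± 0.07), but was not called without TMP195+TNFα 2, 3 or 4 or TNFα 3 (highest adjusted p = 0.0708) or without the block (adjusted p = 0.0646). Among osteoclast markers, which overlap with macrophage genes, Atp6v0d2, the integrin chain Itgb3 (1.81 ± 0.577 to 7.5 ± 3.06 CPM, 2.02 ± 0.24) and the protease Ctsk (0.83 ± 0.18) rose, and the RANK gene Tnfrsf11a fell from 117 ± 7.99 to 69.7 ± 10.2 CPM (-0.76 ± 0.09), out of 9 tested. That was 44.4% called. The call of Ctsk ended without the block (adjusted p = 0.114), and 2 of the 9 fell without TPCA-1+TNFα 2.

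Adhesion genes had 3 higher and 7 lower of 23 (43.5% called), with a median of -0.10. Itgal, which carries leukocytes to ICAM ligands, read 279, 259, 279 and 362 CPM with TMP195 and 566, 570.3, 569 and 838 CPM without. Replicate 4 was highest in both groups, which did not overlap. Its ligand gene Icam1 fell from 503 ± 94.6 to 344 ± 52.6 CPM (-0.54 ± 0.13, adjusted p = 0.00953), with the call lost without the block (adjusted p = 0.0960). Upwards were Pdpn, Itgb3 and, named after its value was seen, the tetraspanin Cd9 (0.87 ± 0.15). Matrix proteases and their inhibitors had 5 higher and 4 lower of 24 (37.5% called). Beside Mmp12, Serpinb9b and Bmp1, the urokinase gene Plau rose from 28.5 ± 6.12 to 44.8 ± 4.30 CPM (0.68 ± 0.12), a call that ended without the block (adjusted p = 0.0768). Picked after seeing their values, the other members called were Adam8 (0.39 ± 0.09) and Adamts1 (1.45 ± 0.32) upwards and Serpinb2 (-1.80 ± 0.36), Adam9 (-0.35 ± 0.11) and Mmp8 downwards. Without the block Adam8, Adam9 and Mmp8 were not called (adjusted p = 0.208, 0.152 and 0.155), and the call of Adam9 ended on leaving out any of the 8 libraries (highest adjusted p = 0.163). The falls of this list numbered 2 without TMP195+TNFα 1, 3 or 4 or TNFα 2 or 4, and 7 without TPCA-1+TNFα 2.

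Genes in a list of secreted growth factors and related proteins were mostly higher, with 7 up and 1 down of 17 (47.1% called). Their median was 0.47. Galectin-3, Lgals3, read 2969, 3552, 3687 and 3276 CPM with TMP195 and 1622, 1644, 2107 and 1204 CPM without. All libraries with TMP195 were above all without (1.06 ± 0.10, adjusted p = 6.94e-06). The activin subunit Inhba rose from 1.98 ± 0.952 to 5.30 ± 2.06 CPM (1.44 ± 0.22), a call that ended without the block (adjusted p = 0.0570), and the anticoagulant Pros1, a ligand for clearance receptors of dying cells, fell from 36.9 ± 3.06 to 17.6 ± 2.79 CPM (-1.07 ± 0.12). Without the block 2 members rose. Named after their values were seen, the receptor Nrp1 and Hbegf also rose, with unstable calls. That of Nrp1 ended on leaving out any of the 8 libraries and that of Hbegf on leaving out any except TNFα 2 (highest adjusted p = 0.212 and 0.182). Costimulation and class II genes had 4 higher and 2 lower of 17 (35.3% called). Beside Cd200, the checkpoint receptor Havcr2 rose by 0.65 ± 0.16 from 2.94 ± 0.807 CPM, and the checkpoint gene Vsir and the costimulator Icosl fell by 0.61 ± 0.11 and 0.61 ± 0.13. The calls of Havcr2 and Vsir ended without the block (adjusted p = 0.106 and 0.0588), and that of Havcr2 without TMP195+TNFα 2, TNFα 3 or TNFα 4. Cd83 (0.99 ± 0.27) and H2-DMb1 (0.50 ± 0.14) also rose, picked after seeing their values. The call of Cd83 ended on leaving out any of the 8 libraries except TMP195+TNFα 4 and TNFα 2, that of H2-DMb1 on leaving out any except TMP195+TNFα 1 (highest adjusted p = 0.0965 and 0.114). Rises in this list numbered 1 without TMP195+TNFα 2, TNFα 3 or TNFα 4 and 2 without TMP195+TNFα 3 or TNFα 1.

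Cell cycle genes stood slightly above 0 with TMP195, and few passed the test. The share called was 8.82% of DNA replication and 5.71% of mitosis genes, below the 13.5% of all genes. The median was 0.24 over 34 DNA replication genes, of which 3 rose, and 0.28 over 35 mitosis genes, of which Cdk1 rose (9.03 ± 0.609 to 11.9 ± 1.10 CPM, 0.39 ± 0.12, adjusted p = 0.0347) and Gtse1 fell. The replication genes that rose were the licensing factors Cdt1 (0.73 ± 0.17) and Mcm6 (0.39 ± 0.10) and the polymerase subunit Pola1 (0.66 ± 0.18). The calls of Cdk1, Cdt1, Mcm6 and Pola1 ended without the block (adjusted p = 0.109, 0.0941, 0.392 and 0.148) and on leaving out certain single libraries (highest adjusted p = 0.153, 0.0534, 0.0698 and 0.103). These were any of the 8 except TMP195+TNFα 4 and TNFα 2 for Cdk1, TNFα 3 for Cdt1, TMP195+TNFα 1, 2 or 3 or TNFα 1 or 4 for Mcm6, and TMP195+TNFα 2 or 4 or TNFα 1, 3 or 4 for Pola1. The rises numbered 5 replication and 2 mitosis genes without TPCA-1+TNFα 2. In the list of kinase inhibitors and G1 cyclins Cdkn1c and the kinase Cdk6 (0.46 ± 0.09) rose, with Cdk4, whose call ended on leaving out any of the 8 libraries (highest adjusted p = 0.15). The inhibitor p21, encoded by Cdkn1a, fell from 813 ± 163 to 519 ± 112 CPM (-0.65 ± 0.09, adjusted p = 2.43e-04), and so did cyclin D3, Ccnd3 (-0.62 ± 0.12). Of the 17 tested members of this list 29.4% were called. So Cdkn1c and Cdkn1a, both kinase inhibitors, changed in opposite directions.

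Other targets of p53, the tumour suppressor that raises Cdkn1a, were lower as well. Of 17 tested members 7 fell and 2 rose (52.9% called), and the median was -0.28. The AKT inhibitor Phlda3 fell from 37.6 ± 6.39 to 19.4 ± 3.5 CPM (-0.96 ± 0.11), the antiproliferative Btg2 from 23.8 ± 5.14 to 13.2 ± 1.94 CPM (-0.84 ± 0.10) and the stress sensor Sesn1 from 55.0 ± 5.02 to 34.5 ± 5.18 CPM (-0.67 ± 0.12). No library of these 3 overlapped between groups. Plk2 went the other way, from 207 ± 45.3 to 380.3 ± 69.1 CPM (0.89 ± 0.15), as did Ddb2 (0.80 ± 0.21), named after its value was seen, which was not called without TMP195+TNFα 1 or 2 or TNFα 4 (highest adjusted p = 0.0854). Without TNFα 2 the count of falling genes was 4, and without the block 4. Apoptosis genes had 1 higher and 5 lower of 30, with Bax (-0.46 ± 0.07), the death receptor Fas (-0.57 ± 0.12) and the antiapoptotic Bcl2a1d (-0.73 ± 0.13), one of several near-identical copies, among those that fell, with Cflar (-0.26 ± 0.07). Named after their values were seen, Tnfrsf10b also fell (-0.57 ± 0.17) and Bid rose (0.25 ± 0.07). Both of these calls ended without the block (adjusted p = 0.105 and 0.0664), that of Tnfrsf10b on leaving out any of the 8 libraries except TMP195+TNFα 4 and that of Bid on leaving out any except TMP195+TNFα 3 (highest adjusted p = 0.104 and 0.117). The calls of Bax, Fas and Cflar ended without the block (adjusted p = 0.112, 0.0698 and 0.0877), and that of Cflar on leaving out any of the 8 libraries except TMP195+TNFα 3 and TNFα 1 (highest adjusted p = 0.133). The falls numbered 3 without TMP195+TNFα 2, TNFα 2, TNFα 3 or TNFα 4, and 8 without TPCA-1+TNFα 2, where 4 rose.

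Antioxidant genes under NRF2 had 8 higher and 0 lower of 34 (1 lower at an unadjusted p under 0.05, and 0 by DESeq2 and limma). That was 23.5% called against 13.5% of all genes, with a median of 0.16. The autophagy receptor Sqstm1 rose from 1522 ± 154 to 2600.1 ± 657 CPM without overlap (0.74 ± 0.13), the metallothioneins Mt1 and Mt2 by 0.72 ± 0.14 and 0.83 ± 0.17 and the glutathione transferase Gstm1 from 248 ± 26.3 to 389 ± 48.5 CPM (0.66 ± 0.14). The metallothionein calls ended without the block (adjusted p = 0.171 and 0.0835), where 4 members of the list were called, and that of Mt2 also with unstranded counts (adjusted p = 0.23). Circadian clock genes had 5 higher and 0 lower of 17 (29.4% called), while their median was -0.04. At an unadjusted p under 0.05 and by DESeq2 and limma 0 were lower as well. The repressors Bhlhe41 (44.7 ± 2.46 to 91.3 ± 10.5 CPM, 1.04 ± 0.14) and Bhlhe40 (3.97 ± 0.662 to 8.59 ± 0.823 CPM, 1.11 ± 0.18), the activator Npas2 (1.20 ± 0.366 to 4.44 ± 1.64 CPM, 1.82 ± 0.26) and the nuclear receptor Rora (7.56 ± 1.14 to 11.5 ± 1.45 CPM, 0.61 ± 0.12) rose, with no overlap in any of the 4. The fifth, named after its value was seen, was Nfil3 (0.60 ± 0.15), whose call ended without the block (adjusted p = 0.0639) and without TMP195+TNFα 3 or 4 or TNFα 1 or 3 (highest adjusted p = 0.0788).

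Glycolysis and hypoxia genes had 3 higher and 2 lower of 29 (17.2% called), near the background of 13.5%. The lactate carrier Slc16a1 (0.70 ± 0.13) and the phosphofructokinase Pfkp (0.58 ± 0.11) rose, with Egln3 (0.52 ± 0.16), named after its value was seen, and the glycolysis regulator Pfkfb3 (-0.46 ± 0.09) and the peptide hormone Adm (-0.54 ± 0.16) fell. The calls of Slc16a1, Adm and Egln3 ended without the block (adjusted p = 0.0992, 0.289 and 0.250), and that of Adm on leaving out any of the 8 libraries except TMP195+TNFα 3 and TNFα 2 (highest adjusted p = 0.157). That of Egln3 ended on leaving out any of the 8 except TMP195+TNFα 2 and 3 (highest adjusted p = 0.214). Without TPCA-1+TNFα 2, 5 members rose. Alternative-activation genes had 2 higher and 2 lower of 16 (25% called). The mannose receptor Mrc1 rose by 0.55 ± 0.17 from 27.8 ± 6.28 CPM and the nuclear receptor Pparg by 0.32 ± 0.10. The signalling inhibitor Socs3 fell by 0.90 ± 0.26 and the interleukin-4 receptor Il4ra by 0.37 ± 0.11. Each of these 4 calls ended without the block, where the adjusted p was 0.313, 0.183, 0.142 and 0.180. Those of Pparg and Il4ra ended on leaving out any of the 8 libraries (highest adjusted p = 0.178 and 0.11). That of Socs3 ended on leaving out any except TNFα 3 (highest adjusted p = 0.131). The call of Mrc1 ended on leaving out any except TMP195+TNFα 3 and TNFα 2 (highest adjusted p = 0.214). Limma did not call Pparg. Of 40 nuclear subunits of oxidative phosphorylation Cox5a (-0.26 ± 0.08) and Ndufs8 (-0.42 ± 0.13) fell, 5.00% called, which is below the background of 13.5%. Their calls ended without the block (adjusted p = 0.147 and 0.114) and without TMP195+TNFα 1, 2 or 4 or TNFα 1, 3 or 4 (highest adjusted p = 0.140 and 0.134), that of Ndufs8 also without TMP195+TNFα 3.

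Markers of RNA quality and of other cell types were checked in the same libraries. EdgeR called 0 of 40 ribosomal protein genes and 0 of 9 mitochondrial transcripts, as did DESeq2 and limma, while 1 and 2 of them had an unadjusted p under 0.05. Without TPCA-1+TNFα 2, 2 ribosomal protein genes and 4 mitochondrial transcripts were called lower. The medians were -0.08 and -0.24, with Rplp0 at -0.19 ± 0.10 and mt-Co1 at -0.12 ± 0.15. Both of these genes were called lower with only the 8 libraries compared in the fit, and Rplp0 also without TPCA-1+TNFα 2. Summed mitochondrial RNA was lower with TMP195 in each pair, at 51222, 41663, 43255 and 33518 CPM against 60213, 48702, 47244 and 35787 CPM. The part of this difference in the other results was not tested. Summed ribosomal protein RNA was 21722 to 22553 CPM with TMP195 and 22985 to 24643 CPM without, so the groups did not overlap by this small margin. Summed macrophage markers were 28596 to 35281 CPM against 35488 to 46706 CPM. The abundant Lyz2 and Adgre1, given above, hold a large part of these sums. Of the 35 tested members 12 were called lower and 4 higher. Neutrophil markers summed to 100.3 to 136 CPM against 158 to 210.3 CPM, with Ly6g, Elane, Prtn3 and Ngp at 0 reads in all 8 libraries. Of the 4 tested, S100a8 (-0.98 ± 0.17), Lcn2 (-0.92 ± 0.22) and Mmp8 (-0.94 ± 0.25) fell. Without TNFα 4 or without the block 1 of these calls was left. The receptor Csf3r missed the threshold (-0.22 ± 0.15, adjusted p = 0.403), although it was called with only the 8 libraries compared.

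Lymphocyte markers summed to 24.4 to 32.9 CPM against 34.4 to 58.0 CPM, with Pax5 at 0 reads and Cd3e and Ms4a1 under 1 CPM in every library. Of 3 tested members, the immunoglobulin chain Ighm fell from 20.6 ± 7.99 to 9.51 ± 1.79 CPM (-1.06 ± 0.18) and the B cell receptor chain Cd79b from 17.8 ± 3.61 to 12.4 ± 2.17 CPM (-0.52 ± 0.11). The call of Cd79b ended without the block (adjusted p = 0.134). The third member, Cd4, named after its value was seen, was higher in all 4 pairs. DESeq2 called it upwards, while edgeR and limma did not. The part of lymphocyte markers in the other results was not tested. Stromal and endothelial markers summed to 48.3 to 86.8 CPM against 32.9 to 52.4 CPM. That sum rests on the fatty acid carrier Fabp4 (25.3 ± 6.93 to 59.7 ± 18.1 CPM, 1.22 ± 0.12), which macrophages express, while Col1a1, Col1a2, Pdgfra and Cdh5 stayed under 1 CPM and Col3a1 and Tek at 0 reads. Acta2, the other of the 2 tested members and named after its value was seen, was lower in all 4 pairs. DESeq2 called Acta2 lower, while edgeR and limma did not. The sums of dendritic cell markers (279 to 408 against 263 to 414 CPM), mast cell markers (8.71 to 19.5 against 7.16 to 14.7 CPM), erythroid and megakaryocyte markers (1392 to 1773 against 1274 to 1702 CPM) and osteoclast markers (544 to 712 against 547 to 714 CPM) overlapped between groups. EdgeR called 0 of the 4, 1 and 2 tested members of the dendritic, mast and erythroid lists. At an unadjusted p under 0.05 there were 2 higher and 1 lower dendritic cell genes and 0 of the others, and 0 in each list by DESeq2 and by limma. Without TPCA-1+TNFα 2, 2 dendritic cell genes were called higher and 1 lower, as were 1 lymphocyte gene higher and 1 stromal gene lower. The highest members of the dendritic, mast and erythroid lists, Bst2, Il3ra and Pf4, stood at 0.05 ± 0.15, 0.28 ± 0.25 and 0.15 ± 0.14. Of these, Il3ra was called with only the 8 libraries compared.

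The levels with DMSO and with TPCA-1, an inhibitor of the kinase IKK2, place these changes among the 4 groups. All comparisons share the TNFα libraries, so their values are only set side by side. Some genes lowered by TMP195 were raised by TNFα. Ptgs2 stood at 3.27 ± 0.845 CPM with DMSO, 116 ± 21 with TNFα, 52.4 ± 10.9 with TMP195+TNFα and 53.6 ± 20 CPM with TPCA-1+TNFα. Saa3 stood in the same order at 13.1 ± 3.97, 1282 ± 657, 314 ± 172 and 25.3 ± 15.9 CPM, and Il1b at 1.4 ± 0.443, 15.3 ± 4.76, 7.2 ± 2.59 and 2.09 ± 1.53 CPM. In these 3 genes the TMP195 group lay between DMSO and TNFα. Ccl2 and Ccl12, also lowered by TMP195, were not raised by TNFα. Ccl2 stood in the same order at 140.0 ± 24.8, 73.6 ± 24.2, 43.9 ± 23 and 13.2 ± 5.18 CPM. Ccl12 stood at 67.8 ± 19.3, 35.3 ± 11.3, 20.7 ± 11.4 and 7.99 ± 2.28 CPM. For both, the DMSO group was the highest of the 4. Bmp1 stood at 1.53 ± 0.569, 16.7 ± 3.51, 5.86 ± 1.09 and 28.5 ± 4.12 CPM, so here the group with TPCA-1 was the highest of the 4. Stard4 stood at 25.1 ± 11.4, 30.1 ± 10.5, 13.5 ± 5.16 and 9.80 ± 1.15 CPM.

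The levels of 5 genes raised by TMP195 are given next. Cdkn1c stood at 4.6 ± 1.72 CPM with DMSO, 4.79 ± 1.34 with TNFα, 34.3 ± 3.30 with TMP195+TNFα and 8.31 ± 4.82 CPM with TPCA-1+TNFα. Vegfa stood at 13.7 ± 2.19, 10.4 ± 1.01, 28.2 ± 2.37 and 17.6 ± 2.28 CPM, and Il7r at 83.4 ± 30.0, 87.2 ± 29.6, 255 ± 46.8 and 71.8 ± 26.4 CPM. For each of these 3 genes the group with TMP195 was the highest of the 4. Rsad2 stood at 180.1 ± 101, 180.3 ± 51.7, 469 ± 248 and 9.92 ± 2.27 CPM, and Ifit2 at 84.1 ± 45.0, 49.6 ± 19.6, 123 ± 83.2 and 2.11 ± 1.11 CPM, so the 2 inhibitor groups lay at opposite ends. Hdac9 stood at 12.5 ± 2.59 CPM with DMSO, and its levels with TNFα (3.94 ± 0.448), TMP195+TNFα (2.77 ± 0.376) and TPCA-1+TNFα (3.52 ± 0.770 CPM) were all below that.

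**Figure D5:**
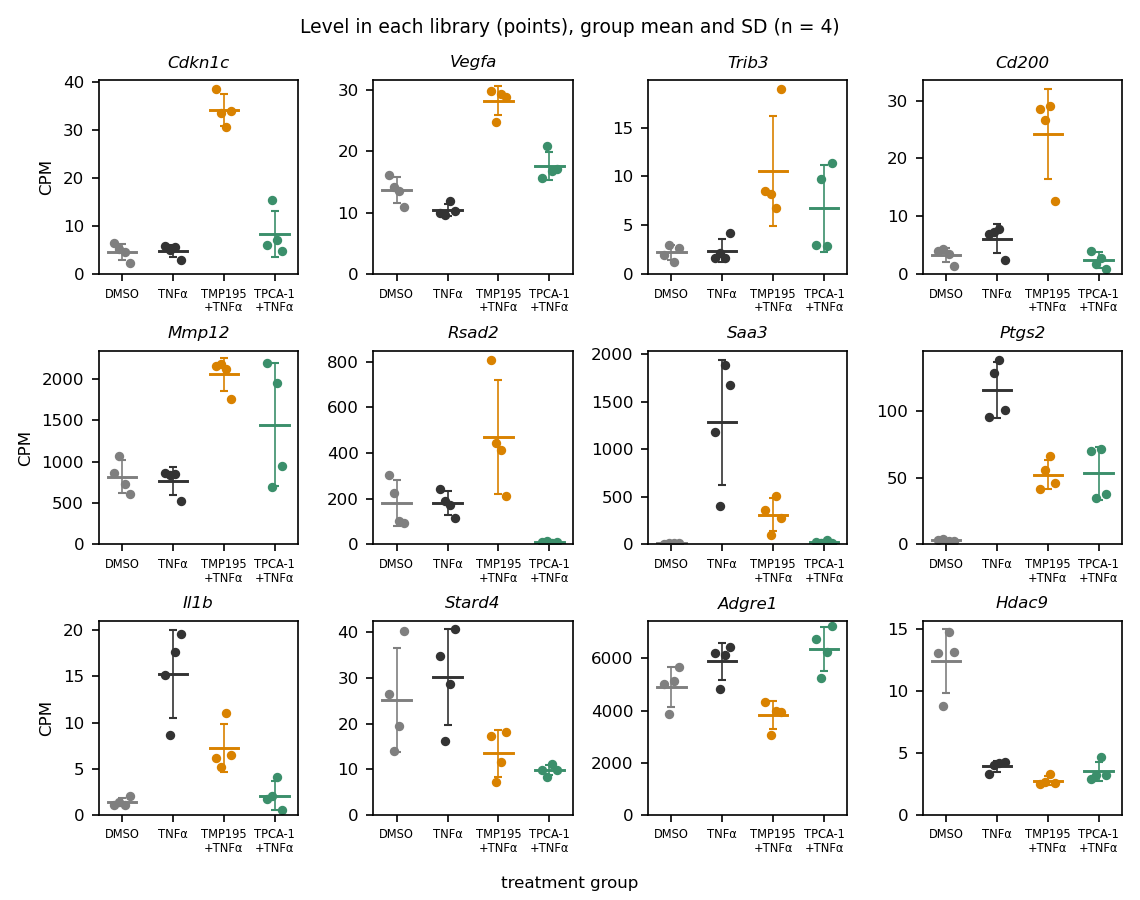
Level in CPM of 12 genes in each library (points) of the 4 treatment groups, with the group mean and SD (n = 4). Cdkn1c, Vegfa and Cd200 are highest with TMP195+TNFα, Rsad2 is highest with TMP195+TNFα and near 0 with TPCA-1+TNFα (9.92 CPM), and Ptgs2 is at 116 CPM with TNFα against 52.4 and 53.6 CPM with the inhibitors.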

How the data were processed

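Gene counts were deposited by the authors for 16 libraries, made with STAR 2.6.1d, per the submitters' processing notes, which name both mm10 and GRCm38; the annotation release is not given in the sources used here. The counts for the strand in column 4 were used. The 4 lines that name no gene were left out of library sizes. Of 54838 identifiers 54809 matched GENCODE M21, which gave symbols and positions.

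All 16 libraries were fitted with edgeR 4.0.16 (R 4.3.3): TMM normalization, filterByExpr, 1 mean per group, the replicate number as a block, and the quasi-likelihood F test, 2-sided, with Benjamini-Hochberg adjustment over all genes tested and a threshold of 0.05. The SE is the absolute log2 fold change over the square root of F. Pair differences used CPM + 0.5. The labels give equal replicate numbers in each group. Deviations from group means of same-number libraries correlated at 0.375 to 0.675 between the groups compared, and those of other numbers at -0.423 to 0.039. Over all 6 pairs of groups the same-number values ran from -0.043 to 0.681. The lowest belonged to TPCA-1+TNFα 2, at 0.02, -0.043 and -0.007 with replicate 2 of DMSO, TNFα and TMP195+TNFα. With replicate 4 of these groups, in the same order, it correlated at 0.257, 0.292 and 0.357. The replicate block thus did not match the deviations of this library, and the reason was not tested.

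Named genes were, at a mean of at least 5 CPM, the 12 largest changes and 6 smallest p per direction with all 4 pairs alike, up to 4 called members per list (3 for lists of other cells and quality) and a fixed set of target and cytokine genes. Genes ranked by change or p had to be protein-coding, without a clone, accession-like or predicted-gene symbol. Members and lists were chosen with earlier results of these data known. The code was tested on simulated data. Alternatives were DESeq2 1.42.0, limma 3.58.1, other normalizations, filters and strand, no block, and libraries left out. Some genes are not reported here.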

Additional observations from a re-analysis of the deposited data

Results flagged for a closer look

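In 316 groups of 4 libraries, each holding a named gene's levels in 1 treatment, 23 had a library whose gap to the nearest other exceeded Dixon's 95% critical share of the group's range. Chance gives about 1 in 20. No explanation was tested.

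In TNFα 4, Aars read 105 CPM (others 70.5 to 74.6), Btg2 31.4 (20.2 to 21.9), Cd200 2.41 (6.99 to 7.72), Gja1 26.8 (18 to 19.1), Itgal 838 (566 to 570.3), Mmp12 519 (835 to 858), Sel1l 262 (240.5 to 243) and Vsir 151 (95.9 to 103). In TMP195+TNFα 4, Atp6v0d2 read 36.9 CPM (others 66.1 to 67.3), Cd200 12.6 (26.6 to 29.1), Gstm1 461 (355 to 372), Il3ra 19.3 (8.53 to 10.1), Mmp12 1753 (2117 to 2184), Trib3 19.0 (6.76 to 8.46) and Wars 102 (70.7 to 74.5). Cd200 and Mmp12 were low in replicate 4 of both groups.

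In TNFα 2, Bhlhe40 read 2.99 CPM (others 4.20 to 4.44), Ccl2 37.7 (81.9 to 90.2), Lyz2 10049 (15114 to 15981) and Plppr4 26.8 (12.3 to 13.5). In TNFα 1, Cd79b read 12.4 CPM (19.2 to 20.3) and Mef2a 149.6 (130.1 to 133). Tbl1x read 128 CPM in TNFα 3 (146 to 148), and Tab2 296 in TMP195+TNFα 1 (264 to 269).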

How the results depend on the processing

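None of the 140 called named genes reversed under the 22 alternatives run, and 69 kept their call in all of them. Without the replicate block 372 genes were higher, 378 lower and 206 changed by at least 2-fold, against 872, 827 and 325 as reported, and 62 of the 140 named calls ended. With only the 8 libraries compared 2163 were higher and 2329 lower. Requiring a mean of at least 5 CPM left 117 genes with a 2-fold change. Leaving out single libraries or replicate numbers gave 317 to 1462 higher genes, 355 to 1491 lower and 194 to 371 changed by at least 2-fold. The lowest counts higher and lower came without replicate number 1, the lowest 2-fold count without number 4, and the highest without TPCA-1+TNFα 2. Among the 8 libraries compared, leaving out TNFα 4 gave 479 higher and TMP195+TNFα 4 gave 478 lower. DESeq2, limma, the other normalizations, unstranded counts and no filter gave 830 to 994 higher, 734 to 1096 lower and 317 to 373 changed by at least 2-fold. The cause of these moves was not tested. At 18562773 to 31596572 counted reads, 3 counts correspond to 0.0949 to 0.162 CPM, and lower levels rest on 1 or 2 reads.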
